A study of Mus musculus with 2 samples.

Results

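A set of 10 genes that encode histone deacylases, the enzymes that take acyl groups off lysines, was examined for H4K12la, histone H4 lactylated at lysine 12. They are 10 of 21887 protein-coding genes and comprise 4 class I deacetylases (Hdac1, Hdac2, Hdac3 and Hdac8) and 6 sirtuins (Sirt1, Sirt2, Sirt3, Sirt5, Sirt6 and Sirt7). Each locus was the RefSeq span of the gene in mm10 plus 10 kb on either side, and every deposited peak that touched a locus was counted. H4K12la was profiled by CUT&Tag, in which a transposase tethered to an antibody cuts and tags the DNA beside a mark. The cells were Neuro2a, a mouse neuroblastoma line, grown in serum on collagen-coated plates. The NaCl library, from cells given NaCl, is the control, and the lactate library came from cells given 25 mM lactate. There was 1 library per group, so that no difference below has a replicate check and no test between the groups was run.

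Lysine deacylases fall into zinc-dependent enzymes, among them class I, and the sirtuins, which consume NAD. Class I enzymes mostly act within corepressor complexes, and Hdac3 in particular, with its class I relatives and several sirtuins, is known from human enzymes to remove lactyl groups from histones. Hdac8 works without such complexes and deacetylates cohesin. Of the sirtuins, Sirt1, Sirt6 and Sirt7 are mainly nuclear, Sirt2 is mainly cytosolic, and Sirt3 and Sirt5 are mitochondrial. The measurement here is the mark at their own genes, not the amount or the activity of the enzymes.

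The NaCl list held 46592 peaks and the lactate list 39768 on the chromosomes kept, and the genome-wide background recovered from the peaks put the lactate library 3.43% deeper. The summit pileup, the number of overlapping reads at the highest point of a peak, was never below 11 reads in either list, so that a locus without a peak may still carry signal below about that level. Intervals on pileups are exact Poisson 95% intervals and cover counting error only. Of 10 marker genes of neurons and neuroblastoma, 4 had a gene-end peak under NaCl and 6 under lactate. Of 10 markers of other cell types, 0 had one under NaCl and 1, the myelin gene Mbp, under lactate.

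The promoters of 6 deacylase genes are shown because they span the range of results, from the highest gene-end peak to no peak at all. Each sequence is the 250 bases before a transcript start in the RefSeq promoter table (GRCm38.p6, the assembly that mm10 names), read 5′ to 3′ on the strand of the gene. Capitals mark the bases that lie inside a lactate peak. For Sirt3 and Sirt6, which have more than 1 listed start, the outermost is shown. The starts used for Hdac2, Hdac8, Sirt5 and Sirt6 lie inside the annotated gene span, so that their sequences overlap it.
Hdac2, chr10:36974294-36974543, plus strand: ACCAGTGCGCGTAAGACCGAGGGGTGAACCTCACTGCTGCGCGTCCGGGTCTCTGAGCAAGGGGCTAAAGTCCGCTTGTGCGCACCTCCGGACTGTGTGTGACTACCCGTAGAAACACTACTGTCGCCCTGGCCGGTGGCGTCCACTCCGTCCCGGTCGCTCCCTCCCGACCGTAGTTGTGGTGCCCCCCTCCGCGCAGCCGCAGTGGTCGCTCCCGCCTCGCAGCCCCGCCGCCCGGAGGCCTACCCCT
Sirt1, chr10:63339036-63339285, minus strand: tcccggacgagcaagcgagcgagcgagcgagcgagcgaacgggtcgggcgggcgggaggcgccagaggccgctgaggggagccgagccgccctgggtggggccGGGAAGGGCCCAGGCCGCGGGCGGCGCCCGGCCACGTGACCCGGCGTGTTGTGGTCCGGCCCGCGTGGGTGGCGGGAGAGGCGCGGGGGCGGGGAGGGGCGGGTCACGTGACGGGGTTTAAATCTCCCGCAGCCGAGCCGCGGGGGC
Sirt3, chr7:140882310-140882559, minus strand: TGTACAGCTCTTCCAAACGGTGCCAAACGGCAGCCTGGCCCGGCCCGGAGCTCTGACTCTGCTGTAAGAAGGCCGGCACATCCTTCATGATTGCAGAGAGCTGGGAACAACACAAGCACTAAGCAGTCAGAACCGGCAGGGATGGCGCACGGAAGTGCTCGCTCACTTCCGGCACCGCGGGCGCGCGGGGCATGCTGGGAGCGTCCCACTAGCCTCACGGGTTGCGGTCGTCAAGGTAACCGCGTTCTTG
Sirt6, chr10:81627567-81627816, minus strand: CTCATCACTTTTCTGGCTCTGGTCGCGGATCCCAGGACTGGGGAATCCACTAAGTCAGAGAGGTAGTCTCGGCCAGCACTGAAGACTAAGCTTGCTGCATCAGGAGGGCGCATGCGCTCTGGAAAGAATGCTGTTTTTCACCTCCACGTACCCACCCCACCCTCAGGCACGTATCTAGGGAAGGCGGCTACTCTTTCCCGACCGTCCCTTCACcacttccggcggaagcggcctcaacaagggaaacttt
Sirt5, chr13:43365285-43365534, plus strand: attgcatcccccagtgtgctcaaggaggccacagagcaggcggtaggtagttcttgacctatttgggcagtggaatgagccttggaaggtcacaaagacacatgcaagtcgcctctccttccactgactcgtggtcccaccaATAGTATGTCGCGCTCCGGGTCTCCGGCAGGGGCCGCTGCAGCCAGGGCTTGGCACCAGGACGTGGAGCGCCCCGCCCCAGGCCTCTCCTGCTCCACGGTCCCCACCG
Hdac8, chrX:102505159-102505408, minus strand: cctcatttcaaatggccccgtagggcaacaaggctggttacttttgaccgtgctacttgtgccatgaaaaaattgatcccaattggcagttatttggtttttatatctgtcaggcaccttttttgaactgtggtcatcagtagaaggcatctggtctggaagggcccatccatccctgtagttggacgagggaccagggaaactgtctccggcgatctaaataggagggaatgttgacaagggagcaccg
The Hdac2 and Sirt3 sequences lay wholly inside a lactate peak, that of Sirt6 for 213 bases, that of Sirt1 for 147 and that of Sirt5 for 108. The Hdac8 sequence held no base of a peak in either library. Under NaCl a peak covered all of the Hdac2 stretch and part of that of Sirt1, and none touched the Sirt3, Sirt6 or Sirt5 stretches.

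More of these genes had an H4K12la peak at an end under lactate than under NaCl. A peak within 1 kb of an annotated end was called for 9 of 10 genes under lactate and for 4 of 10 under NaCl, against 44.8% and 32.0% of all protein-coding genes. Hdac1, Hdac2, Sirt1 and Sirt2 were called in both libraries (28.6% of all genes). Hdac3, Sirt3, Sirt5, Sirt6 and Sirt7 were called under lactate alone (16.2% of all genes), 0 genes were called under NaCl alone (3.34%), and Hdac8 was called in neither (51.9%). Under NaCl the calls were at 2 of 4 class I genes and 2 of 6 sirtuins. Under lactate 3 of 4 class I genes and 6 of 6 sirtuins were called, so that 4 of the 5 lactate-only genes were sirtuins. With so few genes these counts are a description and no class difference was tested. Of the lactate-only genes, Sirt3 alone had a gene-end peak that reached a −log10 q of 5.

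**Figure D1:**
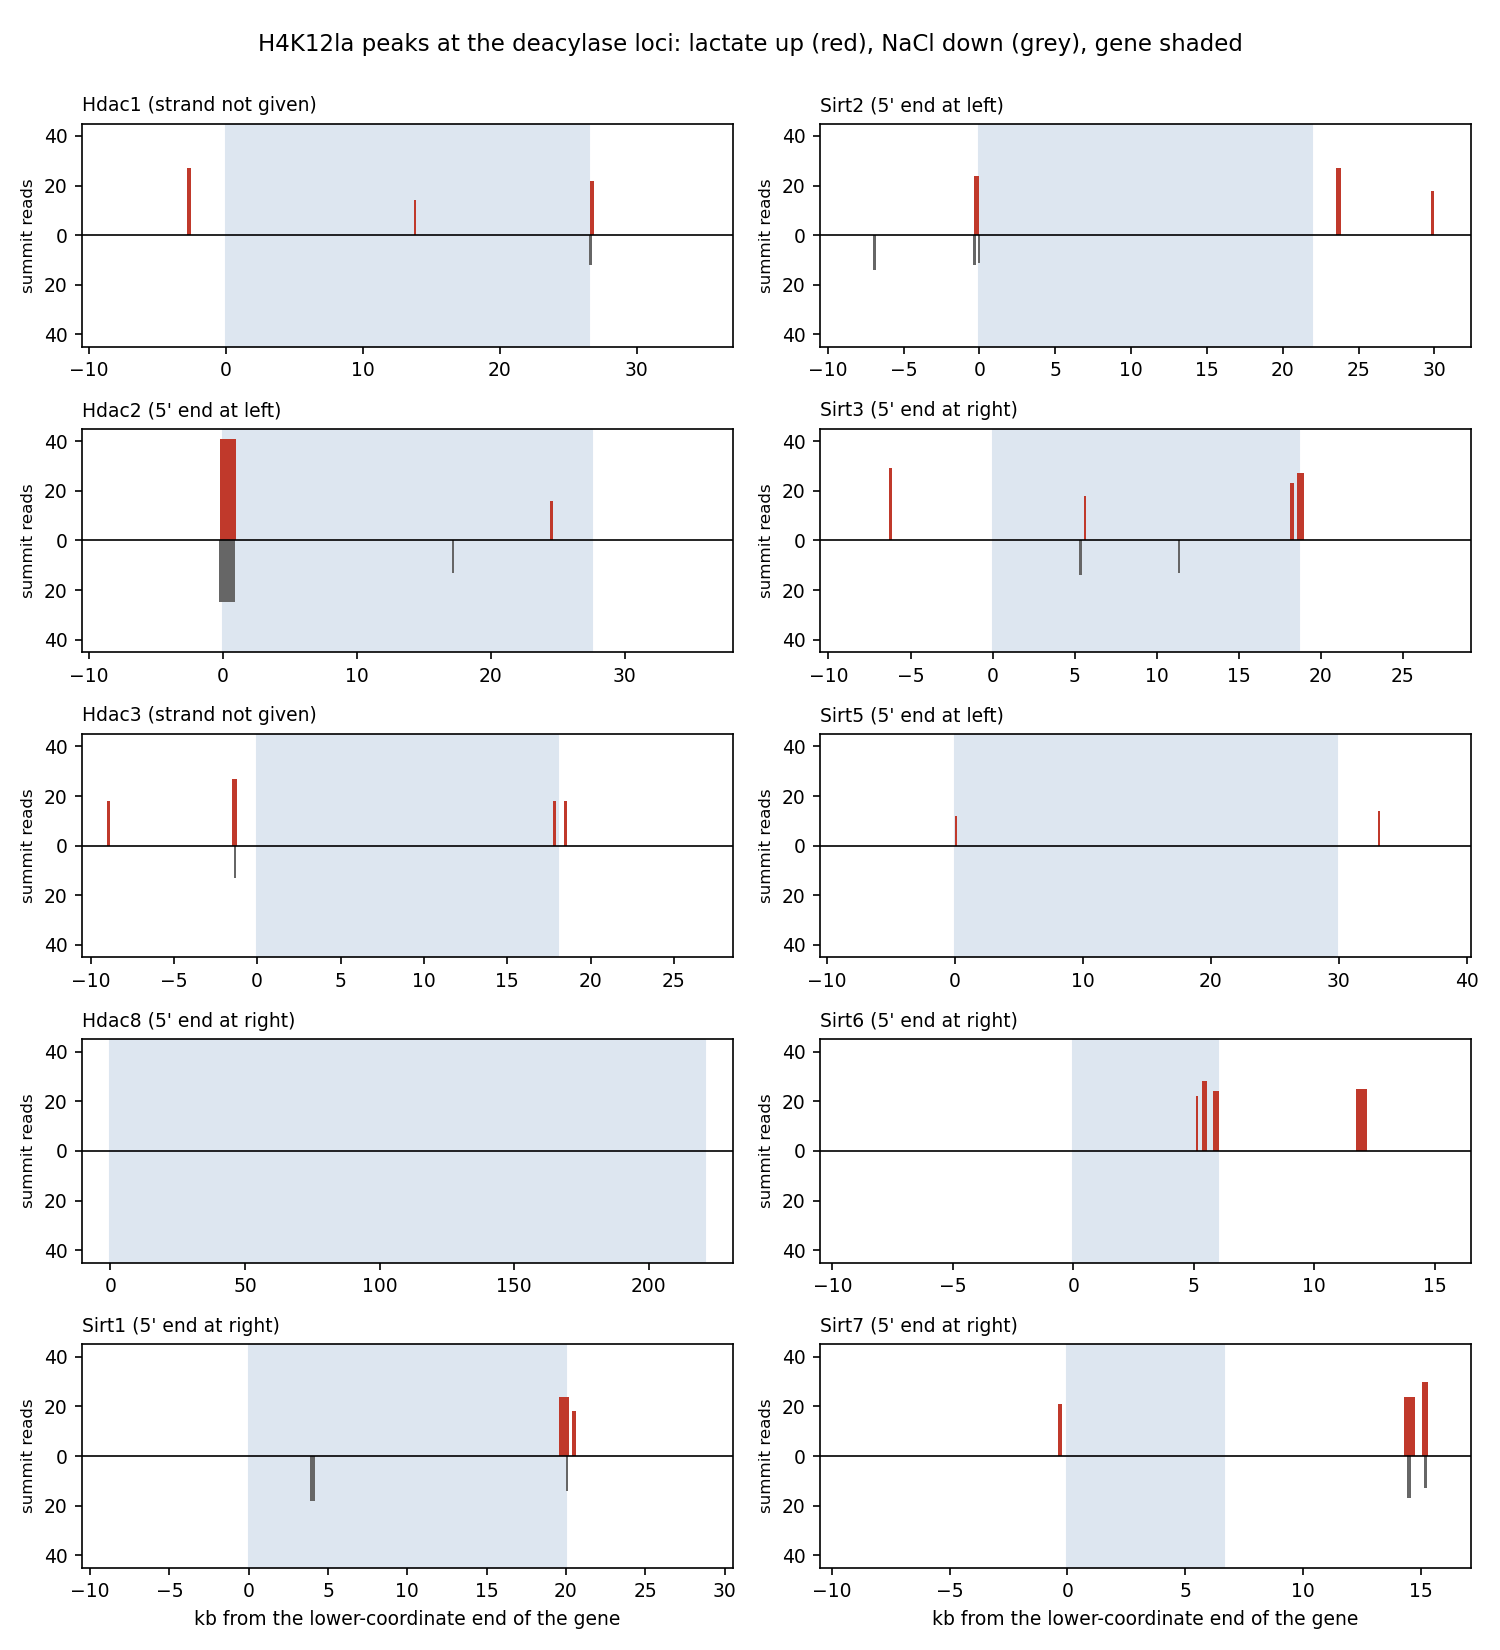
Peaks at the 10 deacylase loci, plotted by distance in kb from the lower-coordinate end of each gene, with summit pileup in reads upward for the lactate library (red) and downward for NaCl (grey); the gene is shaded and the narrowest peaks are widened to be visible. Lactate bars stand at an end of 9 genes, NaCl has no bar at Sirt5 or Sirt6, and Hdac8 is empty.

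Over all 10 loci the NaCl list had 13 peaks covering 2858 bp and the lactate list 27 peaks covering 7919 bp. Over the loci of all protein-coding genes, drawn the same way, the lists had 25951 and 29512 peaks, and a locus held on average 1.48 and 1.80. Of the NaCl peaks, 5 lay at a gene end, 4 in a gene body and 4 in a flank. Of the lactate peaks, 14 lay at a gene end, 3 in a body and 10 in a flank. The larger lactate number thus came from ends and flanks and not from the bodies. The median width was 120 bp under NaCl and 233 bp under lactate, and the median summit was 13 and 23 reads. A −log10 q of 5 was reached by 1 NaCl peak, at Hdac2, and by 10 lactate peaks, of which 4 were at class I loci and 6 at sirtuin loci. The share of all peaks that reached it is not given. At least 1 peak fell within the locus of 7 genes under NaCl and 9 under lactate, against 59.3% and 66.8% of all protein-coding genes.

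Hdac2 carried the highest and widest peak of any deacylase gene in both libraries. Hdac2, a catalytic subunit of the Sin3, NuRD and CoREST complexes, had 25 summit reads under NaCl (16.2 to 36.9) and 41 under lactate (29.4 to 55.6), with overlapping intervals. The NaCl peak ran over 1161 bp at chr10:36974051-36975211 and the lactate peak over 1196 bp at chr10:36974105-36975300, sharing 1107 bp across the 5′ end. The 2 libraries therefore marked almost the same stretch. Peaks of at least 1000 bp made up 0.618% of the NaCl list and 2.02% of the lactate list. The summit stood above 92.3% of NaCl and 97.2% of lactate gene-end peaks. The −log10 q was 8.46 under NaCl and 16.2 under lactate, and no other peak at the 10 loci reached 10. Each library had 1 further, low peak in the body, with 13 reads under NaCl and 16 under lactate, at different places.

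Hdac1, the close paralog of Hdac2 in the same complexes, had peaks just beyond its higher-coordinate end in both libraries. The summit was 12 reads under NaCl (6.20 to 21.0), over 111 bp at chr4:129542690-129542800. Under lactate it was 22 reads (13.8 to 33.3), over 244 bp at chr4:129542725-129542968. The intervals overlapped, and the NaCl summit was 1 read above the lowest of any called peak. The lactate library added a body peak of 14 reads and a flank peak of 27 reads (17.8 to 39.3), the latter beside the gene Marcksl1. A pseudogene copy of Hdac1 on chromosome 17 (78491565 to 78493541) held 1 NaCl peak of 14 reads and 0 lactate peaks. Reads from near-identical copies can be misplaced, so this peak is uncertain.

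Hdac3, the catalytic subunit of the NCoR corepressor complex, was called at its higher-coordinate end under lactate alone. Its gene-end peaks, at chr18:37954724-37954916 and chr18:37955383-37955588, each had 18 reads (10.7 to 28.4) and lay to either side of the gap before Rell2, whose annotated end is 39 bp from that of Hdac3. They stood at the lower side of the list, above 23.3% of lactate gene-end peaks, with −log10 q of 2.44 and 2.66. The strongest signal of the locus lay 1197 bp beyond the other end, at the end of the neighbour Diaph1. There the NaCl library had 13 reads (6.92 to 22.2) over 105 bp and the lactate library 27 reads (17.8 to 39.3) over 340 bp. A window of 3 kb takes in this pair, and Hdac3 then counts as called in both libraries. A further lactate peak of 18 reads lay inside Diaph1.

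Hdac8 had no peak in either library over a locus of 240.744 kb, the longest of the 10. Of 990 protein-coding genes of at least 200 kb, 6.67% had no peak in either list within their span and flanks, and 55.4% had none at an end. Hdac8 lies on the X chromosome, where 11.8% of protein-coding genes had a gene-end peak under NaCl and 25.9% under lactate. Without Hdac8, class I loci held 3.03 NaCl and 6.81 lactate peaks per 100 kb, and sirtuin loci 4.03 and 8.07. With Hdac8 the class I values were 1.07 and 2.41, so that most of the gap in density between the classes lay in this 1 gene.

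Sirt1, a nuclear deacetylase of histones and p53, had a peak across its 5′ end in both libraries. The NaCl peak had 14 reads (7.65 to 23.5) over 149 bp at chr10:63338998-63339146. The lactate peak had 24 reads (15.4 to 35.7) over 627 bp at chr10:63338556-63339182 and contained the whole NaCl peak. A second lactate peak of 18 reads lay 371 bp outside the gene. The highest NaCl peak of the locus was elsewhere, near the 3′ end in the body, with 18 reads (10.7 to 28.4) over 323 bp, and no lactate peak overlapped it. Sirt1 was the sirtuin gene at which the lactate peak was widest.

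Sirt2, a tubulin and histone deacetylase, carried its mark in the gap of 108 bp that separates its 5′ end from Nfkbib, which encodes an inhibitor of NF-κB, and just inside that neighbour. The NaCl library had a pair of narrow peaks of 12 and 11 reads at chr7:28766382-28766492 and chr7:28766645-28766765. Under lactate 1 peak of 24 reads (15.4 to 35.7), at chr7:28766366-28766728, overlapped both. The NaCl summit of 11 reads equals the lowest of any called peak. Beyond the 3′ end, the lactate library alone had peaks of 27 and 18 reads inside the neighbour Rinl. On the 5′ side, 6855 bp from the end of Sirt2, the NaCl library alone had a peak of 14 reads within 1 kb of an end of Ccer2.

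Sirt3, the main mitochondrial deacetylase, had the best supported of the lactate-only gene-end peaks. The stronger lay across the 5′ end at chr7:140882235-140882642, with 27 reads (17.8 to 39.3) and a −log10 q of 8.29. The other, at chr7:140881789-140882044 inside the gene, had 23 reads (14.6 to 34.5) and a −log10 q of 5.53. Each overlapped 1 of the 2 listed promoter windows of Sirt3. Both peaks also lay within 1 kb of an end of Psmd13, a proteasome subunit gene whose annotated end is 85 bp from that of Sirt3. The mark therefore cannot be assigned to either gene. The NaCl peaks of the locus, with 14 and 13 reads, lay in the body, and the lactate body peak of 18 reads overlapped neither. The highest lactate summit of the locus, 29 reads (19.4 to 41.6), was in the flank between Bet1l and Ric8a, where the local background was also the highest of any peak at the 10 loci, at 9.48 reads.

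Sirt5, which removes malonyl, succinyl and glutaryl groups in mitochondria, had the weakest gene-end call of the 10. Its lactate peak had 12 reads (6.20 to 21.0) over 126 bp at chr13:43365427-43365552, above 0.472% of lactate gene-end peaks. The other lactate peak of the locus, 14 reads, lay in the neighbour Nol7, and the NaCl library had 0 peaks. Both lactate peaks stood on the genome-wide background of 3.06 reads, the only such peaks among the 27.

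Sirt6, a deacetylase of histone H3 in DNA repair and metabolism, had 3 lactate peaks within 1 kb of its 5′ end and 0 NaCl peaks anywhere in the locus. Their summits were 22, 28 and 24 reads, at chr10:81626869-81626969, chr10:81627130-81627334 and chr10:81627604-81627854. The highest, 28 reads (18.6 to 40.5), was the top gene-end summit of any sirtuin. The fold enrichment was low, from 2.44 to 3.05, beside a local background of 8.44 to 8.56 reads. The lowest of all lactate folds at the 10 loci was among these. The 5′ end lies 29 bp from an end of Ankrd24, and a further lactate peak of 25 reads lay inside that gene.

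Sirt7, a nucleolar deacylase of histone H3, was called under lactate at its 3′ end and not at its 5′ end. The peak had 21 reads (13.0 to 32.1) at chr11:120617966-120618150, 221 bp outside the gene and between it and Pcyt2, 424 bp from the gene's end. Counting 5′ ends alone, Sirt7 had no call. Both libraries had a pair of peaks farther out, inside Mafg, whose annotated end is 103 bp from the 5′ end of Sirt7. There the NaCl library had 17 and 13 reads and the lactate library 24 and 30 reads.

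**Figure D2:**
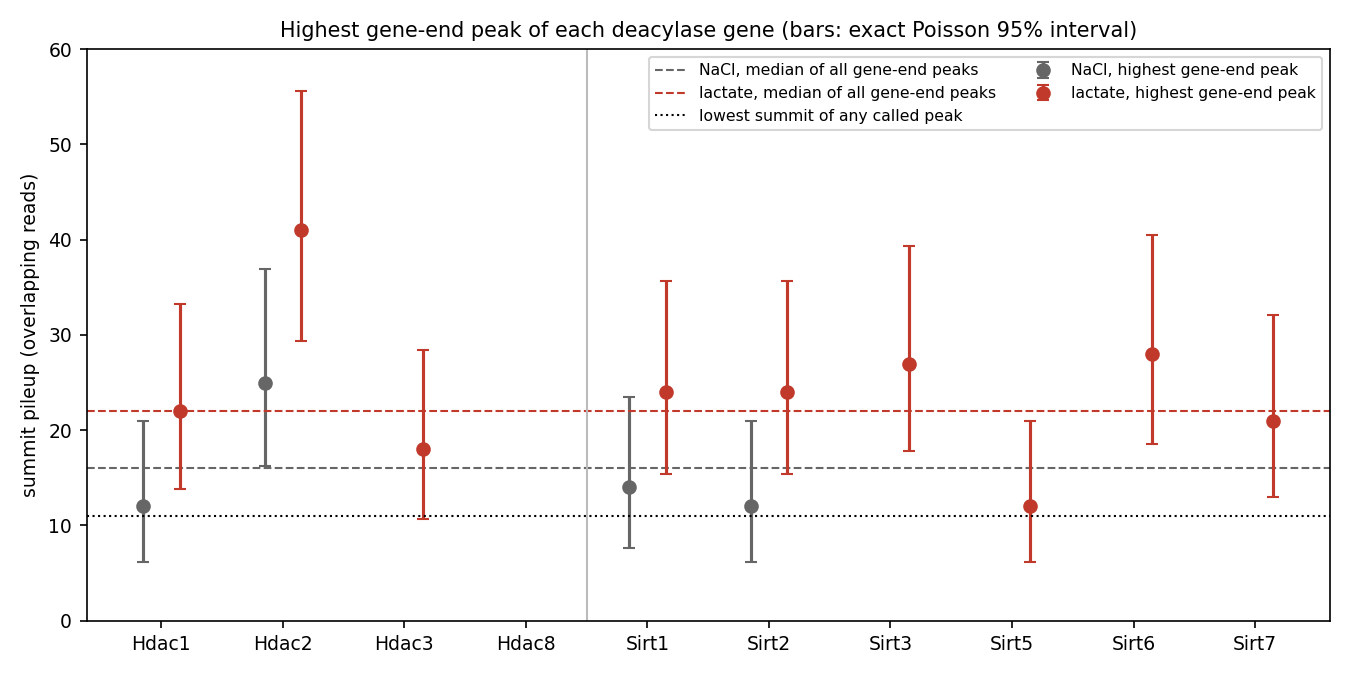
Highest gene-end summit pileup, in overlapping reads, of each deacylase gene in the NaCl (grey) and lactate (red) libraries, with exact Poisson 95% intervals, 1 library each; dashed lines are the medians of all gene-end peaks (16 and 22 reads) and the dotted line is the lowest summit of any called peak, 11 reads. Hdac2 is highest in both, and no point is drawn where no peak was called.

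In order of the highest gene-end summit, the lactate library ran from Hdac2 (41 reads) through Sirt6 (28), Sirt3 (27), Sirt1 and Sirt2 (24 each), Hdac1 (22), Sirt7 (21) and Hdac3 (18) to Sirt5 (12). Each neighbouring pair in that order had overlapping intervals. The 14 lactate end peaks had a median of 22.5 reads and a median fold of 3.32, beside 22 reads and 3.57 for all lactate gene-end peaks. The 5 NaCl end peaks had a median of 12 reads and a fold of 3.28, beside 16 and 3.69. The lactate end peaks were narrower than usual, with a median of 238.5 bp against 387 bp over all gene-end peaks, and so were those under NaCl, at 121 bp against 261 bp.

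Where both libraries had a peak at the same place, the lactate summit was higher each time, and so was the signal around it. The summit was likewise higher under lactate in 93.8% of 5864 overlapping pairs at gene ends of all protein-coding genes. Of the NaCl peaks at these loci, 8 of 13 overlapped a lactate peak, or 61.5% (exact binomial 95% interval 31.6% to 86.1%). Of the lactate peaks, 7 of 27 overlapped a NaCl peak, or 25.9% (11.1% to 46.3%). The same shares over all protein-coding loci were 49.9% and 42.7%, both within these intervals. The overlaps form 8 pairs, at Hdac1, Hdac2, Hdac3, Sirt1, Sirt2 and Sirt7, with both NaCl peaks of Sirt2 sharing 1 lactate peak. The lactate summit was 1.41 to 2.31 times the NaCl summit, and the intervals overlapped in each pair. Such overlap does not by itself show whether the counts differ, and no test was run.

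The local background, the number of reads the peak caller expected around a summit, was higher alongside. Whether it was taken from the same library or from an input library is not stated. This background was 2.96 to 4.06 reads at the NaCl peaks of these pairs and 4.68 to 7.74 at the lactate peaks, a ratio of 1.50 to 2.18. Fold enrichment, which divides the summit by that background, therefore moved less. The factor ran from 0.731 at one of the Sirt7 flank pairs to 1.39 at the Hdac3 flank pair, which lies at the end of Diaph1. Over the 8 pairs, which include the flank pairs, the median ratio was 1.92 for the summit, 1.68 for the background and 1.15 for the fold. Over 5864 pairs at gene ends of all protein-coding genes, the median ratio was 1.55 for the summit, 1.64 for the background and 1.01 for the fold, and the lactate background was the higher in 97.6%. With no replicates and no spike-in stated, a gain of the mark and a difference in how reads were spread between these libraries cannot be told apart.

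**Figure D3:**
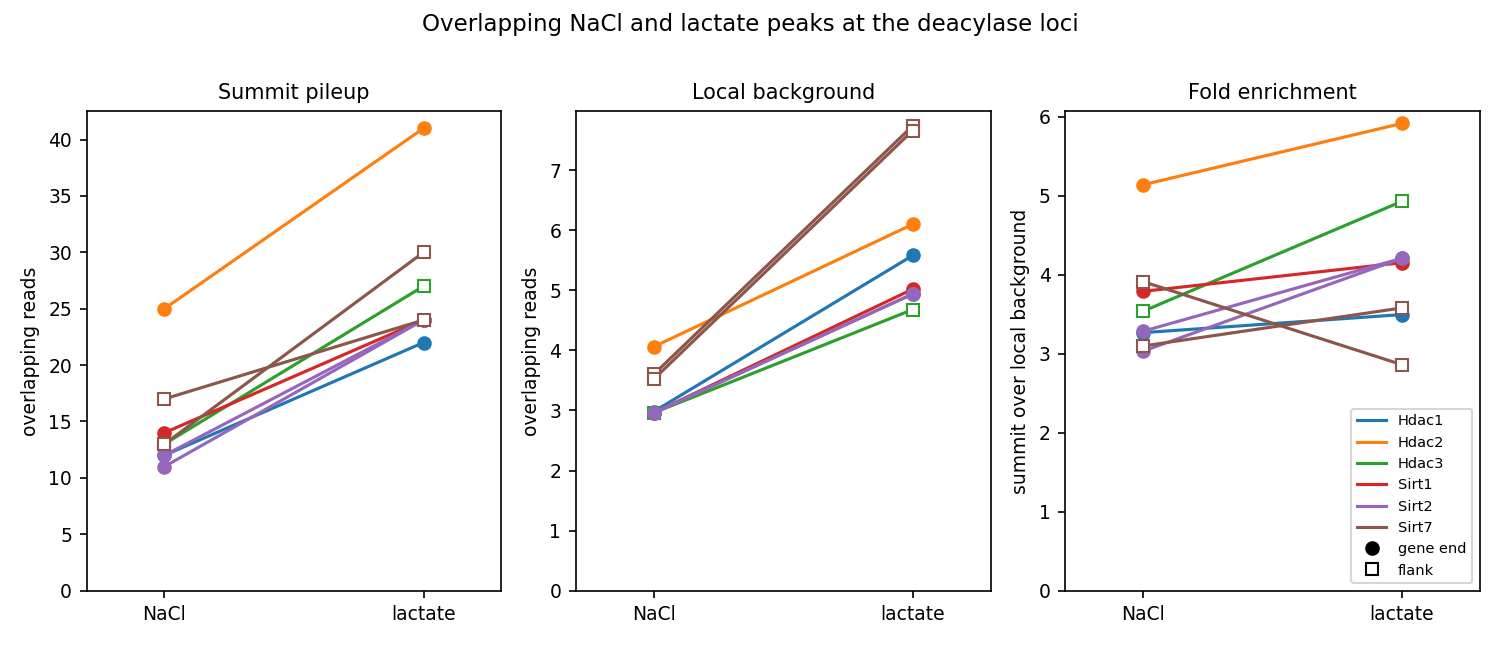
The 8 overlapping peak pairs at the deacylase loci, NaCl at left and lactate at right of each panel, showing summit pileup and local background in overlapping reads and the authors' fold enrichment; filled circles are gene-end pairs and open squares flank pairs, and colours are genes. Summit and background are higher under lactate in all 8 pairs, while fold is lower in 1 Sirt7 pair. Over gene-end pairs of all protein-coding genes, summit and background are higher under lactate in 93.8% and 97.6%.

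Many of these genes sit close to another. For 6 of the 10 (Hdac1, Hdac3, Sirt2, Sirt3, Sirt6 and Sirt7), an end of another protein-coding gene lies within 1 kb of an end of their own, as it does for 24.8% of all protein-coding genes. All 6 were called under lactate and 2, Hdac1 and Sirt2, under NaCl. The Hdac1 peaks lay at its higher-coordinate end, with no neighbour's end within 1 kb, and not at the end beside Marcksl1. Genes so placed were called at 66.5% under lactate and 45.9% under NaCl over the genome, against 37.6% and 27.4% of the others. Of the 4 deacylase genes that stand apart, 3 were called under lactate and 2 under NaCl. Of the 14 lactate end peaks, 9 lay within 1 kb of a neighbour's end too, as did 4 of the 10 flank peaks. Peaks in the flanks thus often belong as well to other genes, and the part of neighbours in the counts was not tested.

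Of the 6 genes with a lactate peak over a promoter window, 4 had a CpG-rich window, as had 5224 of 7070 such genes over the genome. The RefSeq table held windows, from 250 bases before to 50 after a start, for 8 of the 10 genes, 10 windows in all. A peak overlapped a window of 6 of these 8 genes under lactate and of 3 under NaCl, against 40.4% and 25.8% of all genes with a window. A window was called CpG-rich when its GC content was at least 55% and its CpG count at least 0.6 of that expected from its C and G. By this measure 4 of the 8 genes, Hdac2, Sirt1, Sirt3 and Sirt6, had a CpG-rich window, against 44.1% of all genes with a window. Each of these 4 had a lactate peak over such a window. Over the genome, genes with a CpG-rich window had a peak over a window in 67.7% under lactate and 43.6% under NaCl, against 18.9% and 11.7% of the other genes. Of the 4 deacylase genes without one, Sirt2 and Sirt5 had a lactate peak over the window, and Hdac8 and Sirt7 did not. Hdac8 had the lowest observed over expected CpG of the 10 windows, 0.332, followed by Sirt5 at 0.520, the gene with the weakest call. Sirt1 and Hdac2, called in both libraries, had the highest, 1.09 and 1.01. Sirt7 did not follow this order, with 0.929 and no peak.

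**Figure D4:**
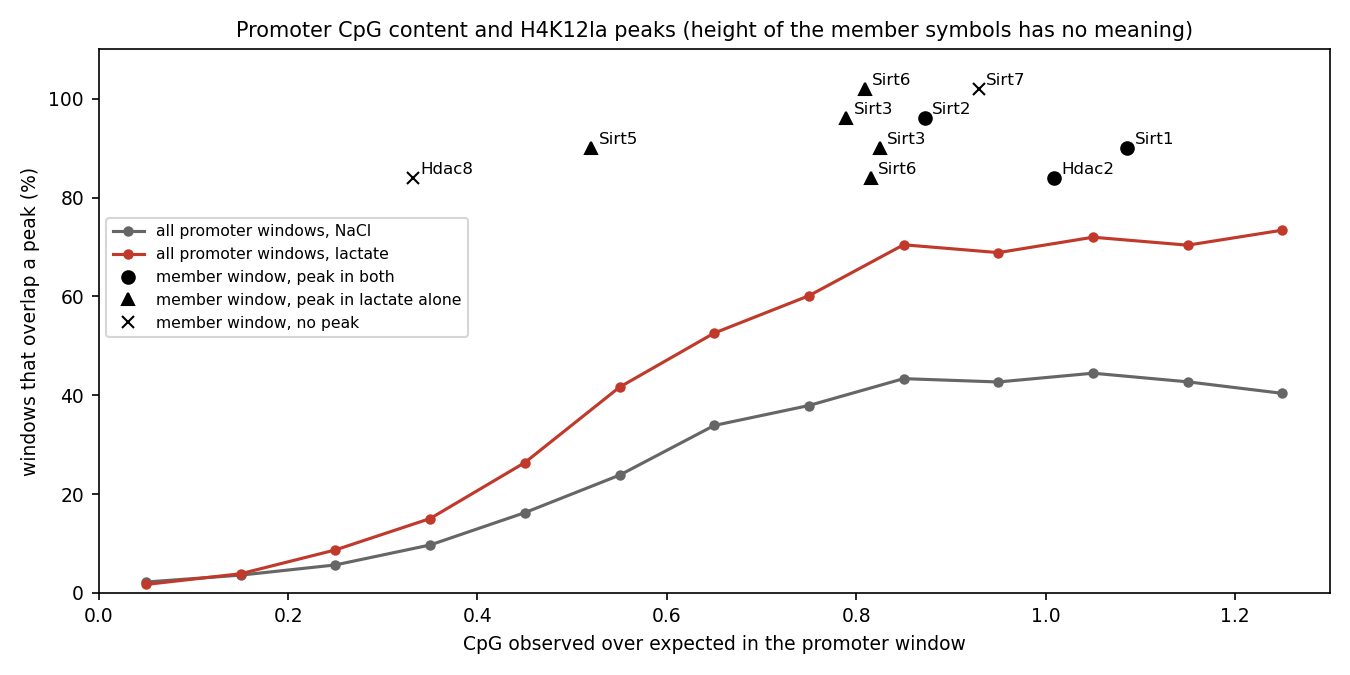
Share of all RefSeq promoter windows that overlap a peak (%), by observed over expected CpG in bins of 0.1 with at least 100 windows, in the NaCl (grey) and lactate (red) libraries; symbols place the 10 windows of 8 deacylase genes on the horizontal axis only. The share rises with CpG content in both libraries up to a ratio of about 0.8, and Hdac8 is the leftmost.

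Short motifs were looked for in these windows on both strands, with overlapping copies counted. The GC box GGGCGG, the letters bound by Sp1, was in 7 of the 10 windows and in 46.2% of all windows, with 7 copies in the Sirt1 window. The E-box CACGTG, which also reads CACGTG on the other strand, was in the Sirt1 window alone and in 7.84% of all windows, and both copies lie inside the printed capitals of Sirt1. The ETS core CCGGAA was in 3 windows, those of Sirt3, Sirt6 and Sirt7, and in 18.7% of all. CCAAT was in 4 windows (38.2% of all), TATAAA in that of Hdac8 (12.6%), and the cyclic AMP response element TGACGTCA in 0 (2.23%). These matches describe the letters of the windows, and no transcription factor was profiled.

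More genes of the partners of these enzymes were called under lactate than under NaCl, and the same held for protein-coding genes as a whole. Of 28 genes for subunits of corepressor complexes that hold class I deacetylases, 22 had a gene-end peak under lactate and 15 under NaCl, or 78.6% and 53.6%, against 44.8% and 32.0% of all protein-coding genes. Of the 28, 14 were called in both, 8 under lactate alone (16.2% of all genes), 1 (Dnttip1) under NaCl alone and 5 in neither. The highest lactate fold was at Tbl1x of the NCoR complex (4.75, and 3.79 under NaCl), with 14 NaCl and 27 lactate summit reads. The highest NaCl fold was at Gatad2b of NuRD (4.64), with 22 and 35 reads, and its lactate fold was lower (3.82). Sap30 of the Sin3 complex had 13 NaCl and 31 lactate reads, and the methyl-CpG binder Mbd2 had 18 and 33. Their folds were higher under lactate, 4.62 against 3.54 at Sap30 and 4.49 against 3.83 at Mbd2. The NCoR scaffold Ncor1, which activates Hdac3, was called under lactate alone, with 28 reads.

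Genes that supply or spend NAD, the cosubstrate of sirtuins, were called in nearly equal numbers in both libraries. Of 12, 7 were called under lactate and 6 under NaCl, or 58.3% and 50%, against the same 44.8% and 32.0% of all genes. Parp1, a NAD-consuming polymerase, was the single lactate-only gene, with 17 reads, where 16.2% of all genes were called under lactate alone. Nadsyn1, NAD synthetase, had the highest fold, with 21 NaCl and 32 lactate reads. Nampt, the rate-limiting enzyme of NAD salvage, had 13 reads under NaCl (6.92 to 22.2) and 29 under lactate (19.4 to 41.6), with overlapping intervals. The kinases Nadk and Nmrk1 had 27 and 41 reads, and 16 and 19. Fold was lower under lactate at Nadk, 3.70 against 4.46 under NaCl. It was higher under lactate at Nadsyn1 (6 against 5.56), Nampt (5.17 against 3.54) and Nmrk1 (4.33 against 4.29).

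Of the remaining 8 deacylase genes, 3 had a gene-end peak under lactate and 1 under NaCl, or 37.5% and 12.5%, below the shares of 44.8% and 32.0% over all genes. Hdac6, a cytosolic tubulin deacetylase, had 17 lactate reads, Hdac11 had 28 and the polyamine deacetylase Hdac10 had 28, all under lactate alone. Hdac5, of class IIa, was called under NaCl alone with 12 reads. Hdac4, Hdac7, Hdac9 and Sirt4 had no gene-end peak, though each had lactate peaks within its locus, 9, 6, 12 and 4 in that order. Sirt4 was thus the only sirtuin without a gene-end call under lactate. None of these lists was tested against the others.

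**Figure D5:**
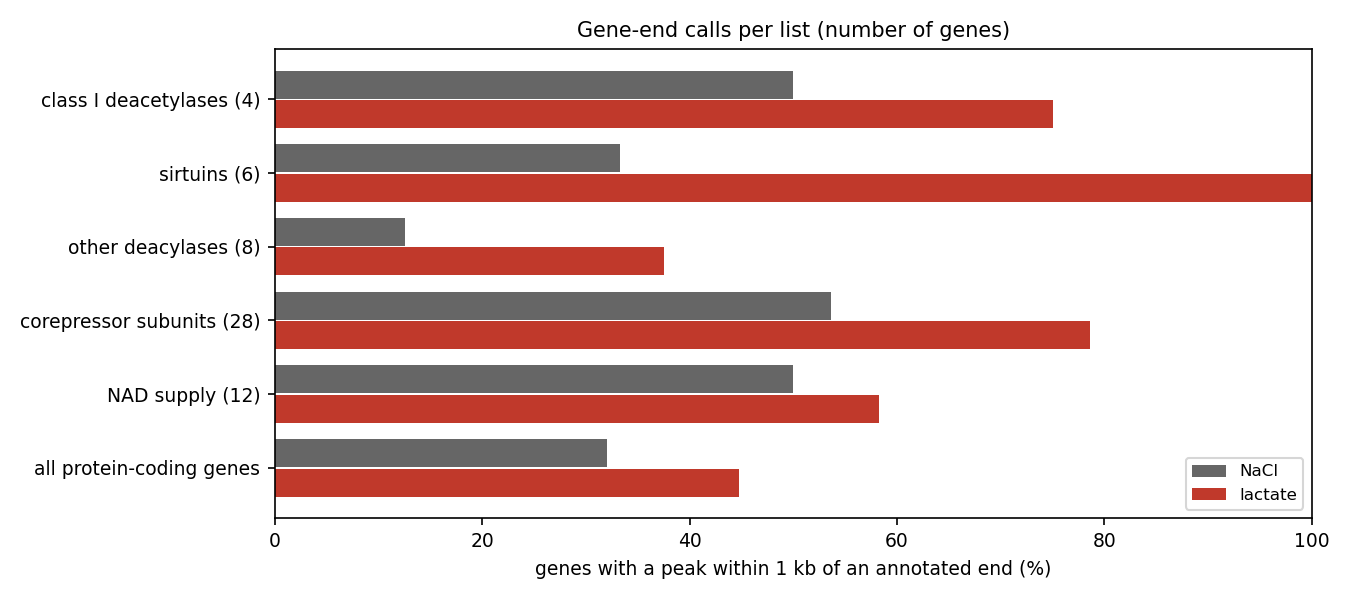
Share of genes (%) with a peak within 1 kb of an annotated end in the NaCl (grey) and lactate (red) libraries, for the 2 deacylase classes, the remaining deacylases, corepressor subunits, NAD genes and all protein-coding genes, with the number of genes in brackets. The lactate bar is the longer in each list, and the bars of the smallest lists rest on 4 to 12 genes.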

How the data were processed

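H4K12la CUT&Tag libraries, 1 from NaCl control cells and 1 from lactate-treated Neuro2a cells, were grouped by the labelled treatment. The submitters' processing notes name mm10 as the build, and BWA, deepTools and MACS2 as tools; for their settings and versions, an input library or a spike-in, the sources used here say nothing. The authors deposited 1 MACS2 peak list per library. The deposited columns are fold enrichment (a ratio of summit to local background), −log10 p, −log10 q and the summit offset. Their peak caller also gave a score, deposited as the −log10 q multiplied by 10. These are the authors' values. Fold was also compared between the lists at overlapping peaks, and the same −log10 q cuts were applied to both lists. The lowest deposited −log10 q was 1.30.

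Only the autosomes, X and Y were used, which left out 6 lines per list. Summit pileup and local background were solved from fold, (pileup + 1)/(background + 1), and the Poisson p. A whole-number pileup matched the deposited −log10 p within 0.001 for 46591 of 46592 NaCl and 39768 of 39768 lactate peaks. Relative depth assumes that both lists were called with the same read extension and genome size, and without an input library. The solution was checked on simulated peaks. Genes, spans and promoter sequences came from RefSeq tables of GRCm38.p6. All 10 members matched by symbol, and the promoter table gave the strand for 8. A peak was placed at an end (within 1 kb of an annotated end), else in the body, else in a flank. Overlap was at least 1 bp. The members and the gene lists were chosen with earlier results of these data known, and all members are named. In the other lists, up to 4 genes with the highest gene-end fold are named, and further genes named there (Ncor1, Parp1, Dnttip1 and the uncalled deacylases) were chosen after their values were seen. One corepressor gene is not reported here and is left out of the counts. Alternatives were stricter −log10 q, lists of equal length, merged peaks and other windows, flanks and overlaps. Software was Python 3.11.15, numpy 2.4.6, pandas 2.3.3, scipy 1.17.1 and matplotlib 3.10.9.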

Additional observations from a re-analysis of the deposited data

How the results depend on the processing

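Of 53 values from 10 alternatives, 38 stayed close to those reported (a count within 1.5 times, a share within its interval) and 15 moved, 13 of them under a stricter threshold. Closeness refers to the number alone, and a count that stayed close can rest on other genes. With both lists held to a −log10 q of 5 or more, the NaCl list kept 1 of its peaks at these loci and 1 gene called at an end (Hdac2), and the lactate list 10 peaks and 4 genes (Hdac2, Sirt1, Sirt2 and Sirt3). The NaCl peak that remained had a lactate partner (100%), as opposed to 10.0% of the lactate peaks. At this threshold 0 class I genes were lactate-only. Sirt1 and Sirt2 joined Sirt3 as lactate-only, while Sirt5, Sirt6 and Sirt7 were no longer called. The shares of all protein-coding genes at the stricter thresholds are not given, so these counts are not shown to be particular to the deacylase genes. Over all gene-end peaks the median summit was 16 reads under NaCl and 22 under lactate. Held to 10 or more, the NaCl list kept 0 peaks and 0 genes, and the lactate list kept 1 peak and 1 gene, Hdac2, with 0% overlap, no share for NaCl and 0 lactate-only sirtuins. The class I count of lactate-only genes stayed at 1 there, but the gene was Hdac2 in place of Hdac3. Hdac3 ceased to be lactate-only with a window of 3 kb, which left 0 class I genes so called. It has no known strand here, so that with 5′ ends alone the class I count was also 0. Under lists of equal length, merged peaks and a window of 500 bp, all 10 genes had the calls reported. No paired analysis was possible because each group has 1 library. Apart from Hdac2, the NaCl gene-end peaks had 11 to 14 reads beside a lowest callable 11, and a gene uncalled under NaCl is not shown to lack the mark there.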
